A study of Caenorhabditis elegans with 2 samples.

Results

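Collagen maturation and cross-linking enzymes are 8 genes of Caenorhabditis elegans whose products modify, fold, cleave or cross-link collagens on the way into the cuticle. They were chosen by gene symbol, and every probe set that the platform annotation gives to exactly 1 of them was taken: 21 probe sets of 20766 with 1 gene, for 8 genes of 17118. The prolyl hydroxylase genes are dpy-18 (Y47D3B.10, chromosome III), phy-2 (F35G2.4, chromosome IV) and pdi-2 (C07A12.4, chromosome X), and dpy-11 (F46E10.9, chromosome V) is the thioredoxin-like gene. The cross-linking genes are bli-3 (F56C11.1, chromosome I), mlt-7 (ZK430.8, chromosome II) and tsp-15 (F53B6.1, chromosome I), and bli-4 (K04F10.4, chromosome I) is the propeptide-cleaving gene. All 8 genes counted as expressed, and 20 of the 21 probe sets did; as expressed was taken any gene or probe set with a mean log2 intensity over both arrays above the median of all probe sets that are not controls.

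Messenger RNA was read from total RNA of whole animals on 2 Affymetrix arrays, 1 per group; the animals were fed the Escherichia coli strain HT115 making double-stranded RNA, which starts RNA interference (RNAi) against the matching gene. In the group labelled imp-2 RNAi the double-stranded RNA matched imp-2, a gene of the signal peptide peptidase family of intramembrane proteases. In the control group, labelled GFP RNAi, it matched the gene of green fluorescent protein. Both groups were therefore fed double-stranded RNA from the same bacterial strain. The labels used here do not give the strain, genotype, age, stage or number of animals. The label of the RNA source adds the name of a region of the mammalian brain, which a nematode does not have. With 1 array per group no difference has a replicate check, no p-value could be had, and precision is limited by how few arrays there are.

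The nematode cuticle is an extracellular coat made mostly of small collagens that the epidermis secretes anew at each molt. In the endoplasmic reticulum, prolyl 4-hydroxylase hydroxylates prolines so that the collagen triple helix is stable, and disulfide bonds join the chains. Proprotein convertases and astacin proteases then cut off the propeptides, and a dual oxidase with heme peroxidases cross-links the secreted collagens through tyrosines. Loss of these steps in C. elegans gives the short, fat (dumpy) or blistered animals after which several of the genes are named.

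The deposited intensities lay between 0.0235 and 11334 on the imp-2 RNAi array and between 0.0819 and 11100 on the GFP RNAi array. Values under an array's own median (35.3 and 30.1) were raised to it as a floor. The targeted gene did not settle the labels: one imp-2 probe set read 1754 on the imp-2-labelled array against 2318 on the GFP-labelled array, and the other read 2517 against 509.8. The second of these sets has a name suffix for probes that can match more than 1 transcript, and the first does not. Each direction given here is therefore a direction between labels. Fewer cells of a type and less RNA per cell cannot be told apart in RNA from whole animals.

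All 8 genes read higher on the imp-2-labelled array as processed here, with bli-3 and bli-4 turning slightly negative under 1 other setting each, and dpy-18 and pdi-2 were past 2-fold. The brightest probe set of each gene, which stands for it here, gave log2 ratios (imp-2-labelled over GFP-labelled array) from 0.24 for bli-3 to 1.65 for dpy-18. Past 2-fold were 2 of the 8 genes on the higher side and 0 on the lower side, and the other 6 stayed inside it. Of all 8553 expressed genes, 9.72% were past 2-fold higher and 2.27% past 2-fold lower. The median of the 8 log2 ratios was 0.39, and that of all expressed genes was 0 because ratios were centred on it. Of the expressed genes, 50% had a ratio above 0, and the upper quartile lay at 0.41. Without dpy-18 and pdi-2, which were picked out after their values were seen, the median of the other 6 genes was 0.35. Over probe sets, 16 of the 20 expressed ones read higher and 4 lower, where 48.4% of all expressed probe sets read higher, and all 4 that were lower belong to bli-4. At least 2-fold higher were 4 of the 20 probe sets, against 8.69% of all expressed probe sets, and 0 were at least 2-fold lower, against 2.51%. Of these 4, 3 belong to dpy-18 and 1 to pdi-2, and 9 of the 20 belong to bli-4. Sets of 1 gene on the same arrays are not independent, so the counts over probe sets are a description.

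**Figure D1:**
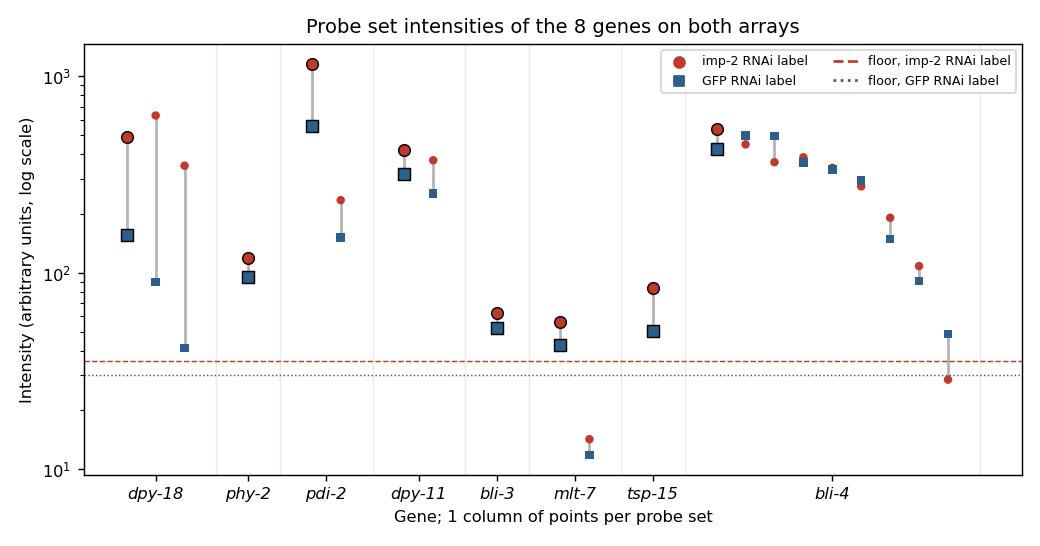
Intensity (arbitrary units, log scale) of all 21 probe sets of the 8 genes on the array labelled imp-2 RNAi (circles) and on the array labelled GFP RNAi (squares); outlined points are the brightest set of each gene, grey lines join the 2 arrays, and the horizontal lines are the floors at 35.3 and 30.1. The gap between the arrays is widest for the 3 sets of dpy-18, while in each of the 9 sets of bli-4 the arrays lie within 2-fold, with either one on top.

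The only error that these arrays can give is the disagreement between probe sets of the same gene. Over 2489 pairs of expressed probe sets of 1851 genes, the root mean square difference between 2 log2 ratios of 1 gene was 0.53, which is a spread of 0.37 for a single probe set. It holds nothing about the spread between cultures. Of the 8 genes, 5 had more than 1 probe set, so that this check could be made, and 3 had 1.

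The prolyl hydroxylase genes read unequally. The enzyme is built from alpha subunits, which carry the catalytic site, and a beta subunit, which is a protein disulfide isomerase; in C. elegans the cuticle enzyme joins the alpha subunits DPY-18 and PHY-2 with the beta subunit PDI-2. The alpha subunit gene dpy-18, whose loss shortens the body, was 3.14-fold higher on the imp-2-labelled array on its brightest probe set. That set read 491 on the imp-2-labelled array and 155 on the GFP-labelled array, a log2 ratio of 1.65. The second set read 630.3 against 89.7, a log2 ratio of 2.80, and the third read 350.1 against 41.3, a log2 ratio of 3.07. All 3 sets were thus well apart on the arrays in the same direction. They disagreed in size by 1.42 on the log2 scale between the lowest and the highest set, which is more than the usual disagreement of 0.53. Both of the larger ratios come from sets with a name suffix for probes that can match more than 1 transcript, and the smallest ratio comes from the set without it.

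Among all genes, dpy-18 stood near the top. On its brightest set it ranked 163 of 8553 expressed genes from the highest ratio, so that 1.89% of genes lay above it. Ratios leaned upward in dim genes, so each gene was also placed among genes of like brightness, in 10 equal bins. In the bin of dpy-18, the seventh from the dimmest, 7 of 855 genes had a higher ratio. Of the 218 genes with 3 or more expressed probe sets, 2 (0.917%) had every set at least 2-fold higher, dpy-18 and snf-5, a gene of the sodium neurotransmitter symporter family. For 0 of these 218 genes was the lowest set above the lowest set of dpy-18.

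The other alpha subunit gene, phy-2, which can partly stand in for dpy-18 and whose combined loss with it is lethal, was close between the labels. Its single probe set read 118 on the imp-2-labelled array and 94.9 on the GFP-labelled array, which is 1.24-fold higher (log2 ratio 0.31). In its brightness bin 320 of 855 genes had a higher ratio, and the bin's median was 0.08. The log2 ratio of dpy-18 exceeded that of phy-2 by 1.34, against a root mean square difference of 0.53 between sets of 1 gene. The sets of dpy-18 alone spanned 1.42, and the single set of phy-2 has a suffix for several transcripts. The 0.53 holds nothing about the spread between cultures, so the difference has no error that could be measured here.

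The beta subunit gene pdi-2, which is needed to keep the alpha subunits soluble and active, lay just past 2-fold. Its brightest probe set read 1158 on the imp-2-labelled array and 556 on the GFP-labelled array, which is 2.07-fold higher (log2 ratio 1.05). Its other set read 234 against 151, which is 1.53-fold higher (log2 ratio 0.62). Both sets read in the same direction, and they differed by 0.43. The call at 2-fold rests on the brightest set, which has such a suffix; without such sets pdi-2 had a log2 ratio of 0.61 and only dpy-18 was past 2-fold. As pdi-2 is bright, few genes like it stood higher: in its bin, the ninth, 18 of 855 genes had a higher ratio and the median was −0.11. Its ratio lay 0.74 above that of phy-2 and 0.60 below that of dpy-18.

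**Figure D2:**
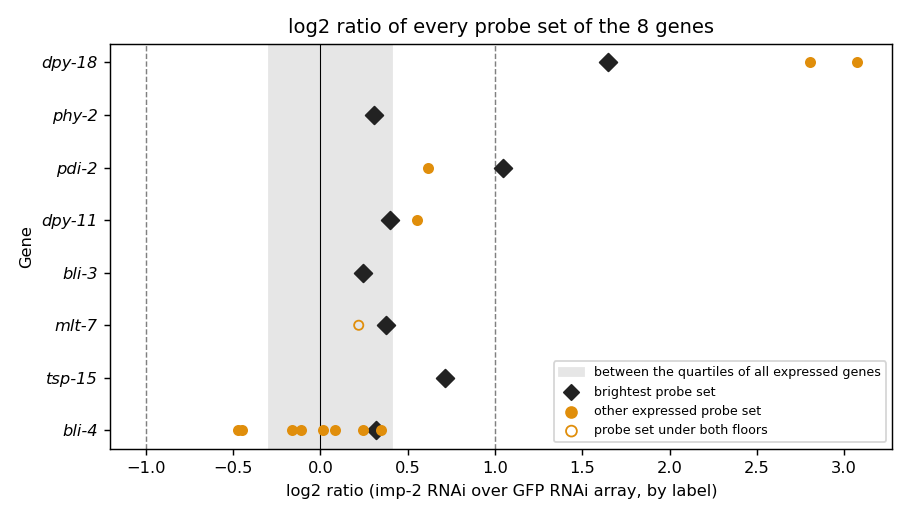
Log2 ratio (imp-2-labelled over GFP-labelled array) of every probe set of the 8 genes; diamonds are the brightest set of each gene, filled circles the other expressed sets, the open circle the mlt-7 set under both floors, dashed lines 2-fold, and the grey band the span between the quartiles of all expressed genes, from −0.30 to 0.41. The dpy-18 sets (1.65, 2.80 and 3.07) and 1 pdi-2 set (1.05) lie past 2-fold, and 1 bli-4 set with its imp-2 value raised to the floor is drawn at −0.47.

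The thioredoxin-like gene dpy-11 read slightly higher on the imp-2-labelled array on both of its probe sets. DPY-11 is a membrane-associated protein of the epidermis with a thioredoxin-like domain, and its loss gives dumpy animals. The brightest set read 419.7 on the imp-2-labelled array and 316 on the GFP-labelled array (1.32-fold, log2 ratio 0.40). The other read 373 against 253 (1.47-fold, log2 ratio 0.55). The 2 sets differed by 0.15, less than the usual 0.53, and neither reached 2-fold. In its brightness bin, which it shares with dpy-18, 113 of 855 genes had a higher ratio.

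The cross-linking genes were the dimmest of the 8, and none reached 2-fold. BLI-3 is the dual oxidase that makes hydrogen peroxide for tyrosine cross-links. Its only probe set read 62.3 on the imp-2-labelled array and 52.2 on the GFP-labelled array (1.18-fold, log2 ratio 0.24). The bin of bli-3 had a median of 0.26, and 438 of its 855 genes stood higher, so this gene sat at the middle of genes of its brightness.

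MLT-7 is a heme peroxidase that works with BLI-3 and is needed for molting. The brightest mlt-7 set read 56.2 on the imp-2-labelled array and 43.0 on the GFP-labelled array (1.30-fold, log2 ratio 0.37). The other set, at 14.2 and 11.8, lay under both floors and is the one that did not count as expressed. In the same bin as bli-3, 383 of 855 genes had a higher ratio than mlt-7.

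TSP-15 is a tetraspanin, a membrane protein that BLI-3 needs for its activity in the epidermis. The only tsp-15 set read 83.2 on the imp-2-labelled array and 50.4 on the GFP-labelled array, which is 1.64-fold higher (log2 ratio 0.71), the third ratio of the 8 after dpy-18 and pdi-2. In its bin, with a median of 0.25, 240 of 855 genes stood higher. Against genes of like brightness, bli-3, mlt-7 and tsp-15 thus lay inside the bulk of the ratios.

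**Figure D3:**
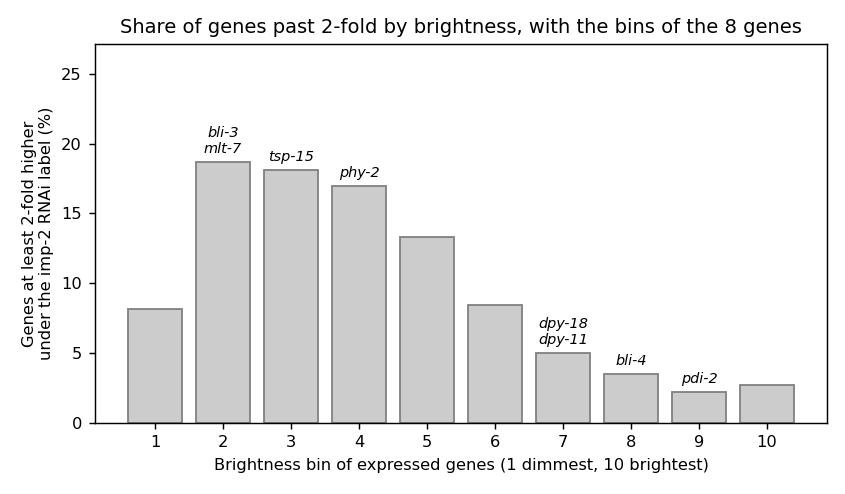
Share of expressed genes (percent) at least 2-fold higher on the imp-2-labelled array in 10 equal bins of brightness, from the dimmest (1) to the brightest (10), with each of the 8 genes written above its bin. The share was 18.7% in the bin of bli-3 and mlt-7, 5.03% in that of dpy-18 and 2.22% in that of pdi-2.

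The convertase gene bli-4 had 9 probe sets, which pointed in both directions. BLI-4 is a kex2-like proprotein convertase with several protein isoforms that cuts the amino-terminal propeptide from cuticle procollagens. The brightest set, the 1 set without a suffix for several transcripts, read 536 on the imp-2-labelled array and 426 on the GFP-labelled array, which is 1.25-fold higher (log2 ratio 0.32). The next set read 449 against 500.0 (log2 ratio −0.16), and the third read 364.9 against 495 (log2 ratio −0.45). Of the 9 sets, 5 read higher and 4 lower on the imp-2-labelled array. Their log2 ratios ran from −0.47 to 0.35 with a median of 0.02, and none was past 2-fold. The lowest belongs to the dimmest set, which read 28.6, under the floor of the imp-2 array, against 48.6. The standard deviation over the 9 sets was 0.31, close to the median of 0.36 over the 12 genes with 5 or more expressed sets. Ratios of both signs were found in 34.6% of the 1851 genes with 2 or more expressed sets, so a split of this kind is common on these arrays.

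Other processing kept dpy-18 past 2-fold and moved pdi-2 across it. Over 9 alternatives, dpy-18 had log2 ratios from 1.39 to 2.52, all past 2-fold, and pdi-2 had them from 0.61 to 1.14, past 2-fold in 5 of the 9. The log2 ratio of bli-3 was between −0.02 and 0.26, and that of bli-4 between −0.01 and 0.44, so neither kept its direction in all of them.

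**Figure D4:**
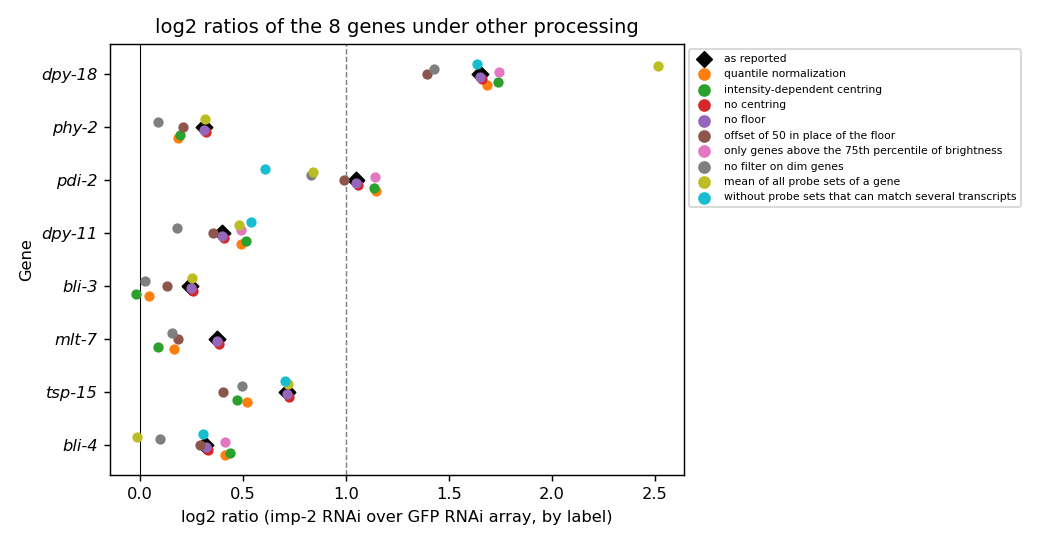
Log2 ratio (imp-2-labelled over GFP-labelled array) of each of the 8 genes as reported (diamonds) and under 9 other ways of processing (circles, coloured by setting); the dashed line is 2-fold, and a gene has no point where a setting left it out. All points of dpy-18 lie past 2-fold, from 1.39 to 2.52, while those of pdi-2 lie on both sides of the line.

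Other genes of the same steps were counted from lists chosen by role. Of 37 listed enzymes and partners, 36 were on the arrays and 21 were expressed. Past 2-fold on the imp-2-labelled array were 1 of these on the higher side and 0 on the lower side, against the 9.72% and 2.27% of all expressed genes given above. Their median log2 ratio was 0.05, and 14 of the 21 were above 0. The count of 1 was 0 after quantile normalization or intensity-dependent centring and 2 with no floor. The difference between these genes and the 8 was not tested.

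Among 5 expressed hydroxylase and disulfide isomerase genes, 0 passed 2-fold, and the median was −0.17. That median was above 0 under some of the other settings. The disulfide isomerase gene pdi-6 came closest: it read 3034 on the imp-2-labelled array and 1598 on the GFP-labelled array (1.88-fold higher, log2 ratio 0.91), and its other set had a log2 ratio of 1.15. The lysyl hydroxylase gene let-268, which acts on type IV collagen, had a log2 ratio of −0.22, and the disulfide oxidase gene ero-1 also had one of −0.22. The alpha subunit gene phy-3 lay under both floors, at 18.98 and 21.9. On the brightest sets pdi-6 and pdi-2 lay close to 2-fold on either side of it, and their order depended on the processing. With the mean of all sets, pdi-6 had a log2 ratio of 1.04 and pdi-2 one of 0.84, and above the 75th percentile of brightness both were past 2-fold (1.01 and 1.14).

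Of 8 oxidase and peroxidase genes and partners, 3 were expressed and 0 passed 2-fold. The peroxidase gene skpo-1 read lower on the imp-2-labelled array, at 382 against 599 (log2 ratio −0.66). The peroxidase gene skpo-3 had a log2 ratio of 0.03, and memo-1, which encodes a partner of BLI-3, one of 0.02. The BLI-3 paralog duox-2, the oxidase maturation factor gene doxa-1, skpo-2 and the peroxidasin genes pxn-1 and pxn-2 lay under both floors. For these 5 no ratio could be measured.

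Of 10 convertase, collagen proteinase and inhibitor genes, 4 were expressed, with a median log2 ratio of 0.35. The convertase gene aex-5, known for its role in the defecation cycle, was at least 2.25-fold higher, at 68.4 on the imp-2-labelled array against 27.2, under the floor, on the GFP-labelled array, and so counted as expressed only through the array on which it was high. The astacin gene dpy-31, whose product cuts the carboxy-terminal propeptide of the collagen SQT-3, read 93.5 against 58.7 (1.58-fold higher, log2 ratio 0.66). Its other sets had log2 ratios of 1.14 and at least 0.62, the last with its GFP value (27.1) under the floor. The convertase gene egl-3, which processes neuropeptides, had a log2 ratio of −0.31. The furin-like convertase gene kpc-1, named here after its values were seen, had 0.04 on its brightest set (101 against 97.8), but 1.24, 1.22 and 1.14 on its other 3 sets, each past 2-fold and each with a suffix for several transcripts. The remaining 6, the astacin genes nas-6, nas-7, nas-36, nas-37 and nas-38 and the protease inhibitor gene bli-5, lay under both floors.

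Of 12 peptidyl-prolyl isomerase and disulfide reductase genes, which act on folding and on the thiols of proteins, 9 were expressed and 0 passed 2-fold, with a median log2 ratio of 0.28. The highest was dnj-27, an endoplasmic reticulum co-chaperone gene with thioredoxin domains, at least 1.98-fold higher (60.3 against 23.5, under the floor). It counted as expressed only through the array on which it was high. With no floor dnj-27 had a log2 ratio of 1.35, and the count past 2-fold higher in this list was 1. The cyclophilin gene cyn-5 had a log2 ratio of 0.57 and the FK506-binding protein gene fkb-3 one of 0.50.

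The collagens on which these enzymes act were counted in the same way. Of 21 cuticle collagen genes named by their mutant phenotype, 18 were on the arrays and 13 were expressed. Past 2-fold higher were 6 of the 13, none was past 2-fold lower and 7 were inside 2-fold, against 9.72% and 2.27% of all expressed genes, and the median log2 ratio was 0.92. The share past 2-fold higher was between 5.03% and 18.1% in the brightness bins of these 6 genes. The count of 6 was 2 with an offset of 50 in place of the floor and 3 once sets open to more than 1 transcript were left out. The highest was dpy-5, at 507 against 143 (3.52-fold, log2 ratio 1.81). After it came rol-6 (at least 3.02-fold), sqt-1 (log2 ratio 1.59), rol-8 (2.53-fold), bli-1 (at least 2.43-fold) and dpy-17 (2.20-fold). On the GFP-labelled array rol-6 (91.6 against 19.7) and bli-1 (73.8 against 15.1) lay under the floor, so 2 of the 6 counted as expressed only through the array on which they were high, and the count and median are a description. For sqt-3, a substrate of both BLI-4 and DPY-31 that was named after its values were seen, the brightest set was level at 5577 against 5208 (log2 ratio 0.09) and the other was 2.70-fold higher (553 against 203). Of the type IV collagen genes, emb-9 was 3.01-fold higher (log2 ratio 1.59, and 0.56 on its other set) and let-2 was 1.70-fold higher (log2 ratio 0.76). The difference between collagens and enzymes was not tested.

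**Figure D5:**
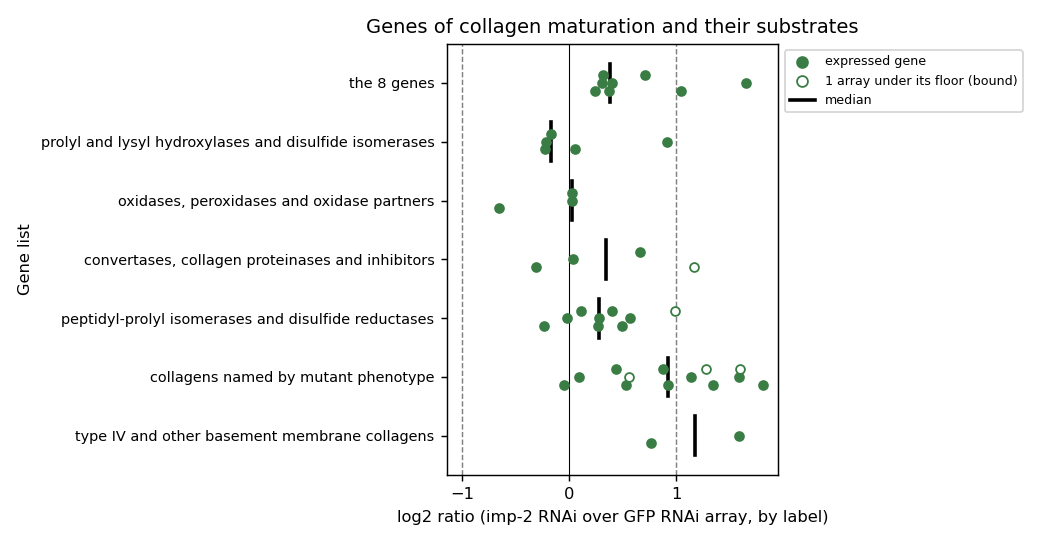
Log2 ratio (imp-2-labelled over GFP-labelled array) of the expressed genes of each list; each point is 1 gene by its brightest probe set, open points are bounds where 1 array lay under its floor, black bars are medians and dashed lines 2-fold. The medians as reported were 0.39 for the 8 genes, 0.92 for the collagens named by mutant phenotype and −0.17 for the other hydroxylases and disulfide isomerases. The last of these was above 0 under some of the other settings.

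Markers of the epidermis, which makes the cuticle, and of the molt were read on the same arrays. Of 12 epidermis markers 11 were expressed, and che-14 lay under both floors. Past 2-fold higher were mup-4 and let-805 and none was past it lower, against 9.72% and 2.27% of all expressed genes. In the brightness bin of let-805, 8.42% of genes were past 2-fold higher. The median log2 ratio was 0.17, and 7 of the 11 were above 0. Below 0 on their brightest sets were let-413 (−0.60), nhr-23 (−0.46), vab-10 (−0.43) and lin-26 (−0.28). Other sets gave 0.32 for let-413, −0.04 for nhr-23, 0.53, 0.87 and −0.64 for vab-10 and −0.15 for lin-26. The gene ajm-1 was above 0 on its brightest set (0.84), and its other sets had −0.57, 0.60, 0.92 and −0.69. Directions of let-413, vab-10 and ajm-1 thus differed between sets. The fold of nhr-25 is a bound, as its GFP value (28.4) lay under the floor. The summed intensity was 2296 on the imp-2-labelled array and 2201 on the GFP-labelled array. Of 12 molt markers 7 were expressed, 3 were higher (mlt-8, noah-1 and mup-4) and 0 lower, with a median of 0.93 and a summed intensity of 1262 against 635; mlt-9, mlt-10, nas-36, nas-37 and qua-1 lay under both floors. The gene mup-4 is in both lists. The 3 molt markers are set against 9.72% of all expressed genes past 2-fold higher and 2.27% lower, and against 18.7% higher in the brightness bin of mlt-8 and 13.3% in that of noah-1 and mup-4. On their brightest sets, the other 4 expressed molt markers had −0.13 (mlt-11), 0.56 (noah-2), at least 0.82 (acn-1) and 0.93 (lrp-1). Their other sets gave 0.49 for mlt-11, 0.42 for acn-1 and 0.89 for lrp-1, so the direction of mlt-11 differed between sets. The GFP value of acn-1 lay under the floor, so acn-1 counted as expressed only through the array on which it was high. The count and median of the molt markers are therefore a description. The part of the molt in the ratios of dpy-18 and pdi-2 was not tested.

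Markers of other tissues were read as well. Of 7 expressed intestine markers 4 were at least 2-fold higher on the imp-2-labelled array, where 9.72% of all expressed genes were, with a median log2 ratio of 1.09 and a summed intensity of 6807 against 5349. The share past 2-fold higher was between 2.22% and 18.7% in the brightness bins of these 4 genes. Of the 4, elt-7 (68.1 against 29.7) lay under the floor on the GFP-labelled array, so that its fold is a bound. It counted as expressed only through the array on which it was high, so the count and median of the intestine markers are a description. The intestine regulator gene elt-2 lay under both floors. Medians were 0.15 for 7 body wall muscle markers (1 higher), −0.28 for 8 neuron markers (0 higher) and −0.14 for 8 germ line markers (0 higher). Their summed intensities were 8578 against 7504, 1803 against 1818 and 9757 against 11323. Of the muscle markers hlh-1 lay under both floors, and of the neuron and germ line markers none did. The 5 yolk genes on the arrays had a median of 0.51 and 0 past 2-fold on their brightest sets, with a summed intensity of 27455.5 against 24862.5. Other sets of vit-4 had log2 ratios of −0.29 and −1.25, the last past 2-fold lower, and the other set of vit-6 had 0.28. Of the adult cuticle markers 2 were expressed, bli-1 above and col-19 (log2 ratio 0.07). Worm tissue markers were thus present in each of these lists, and the part of tissue or stage in the ratios of the 8 genes was not tested.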

How the data were processed

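The deposited values are intensities, not logged, with 1 value for each probe set. For how the authors summarised, background-corrected and scaled them, nothing is given in the sources used here; both arrays had a trimmed mean (2% off each end) of 150.04. Of 22625 probe sets 77 were controls. Probe sets were named from the platform annotation and updated by gene ID to the WBcel235 gene table, with 65 IDs outside it; the build of the arrays is not given, and coordinates are left out. Values were put on the log2 scale after each array's median was set as a floor, ratios were centred on the median of expressed genes (a shift of 0.01), and the brightest probe set stood for a gene. Genes past 2-fold were counted, with no test. The 8 genes, the lists and the rule for named genes (all 8, imp-2, and in each list of related genes those past 2-fold or the 3 furthest from 0) were chosen with earlier results of these data known. Lists overlap for bli-1, bli-2, nas-36, nas-37 and mup-4. Steps were tested on simulated data (Python 3.11.15, numpy 2.4.6, pandas 2.3.3). Alternatives covered normalization, centring, the floor, the filter on dim genes and the choice of probe set.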

Additional observations from a re-analysis of the deposited data

How the results depend on the processing

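The 9 alternatives gave every one of the 8 genes that could be measured a log2 ratio above 0, except bli-3 with intensity-dependent centring (−0.02) and bli-4 as the mean of its sets (−0.01). The gene dpy-18 stayed past 2-fold in all 9, from 1.39 (offset of 50) to 2.52 (mean of its sets), and pdi-2 ranged from 0.61 (without sets that can match several transcripts) to 1.14 (quantile normalization). The count at least 2-fold higher was 2 as reported and 1, dpy-18 alone, with an offset of 50, with no filter on dim genes, with the mean of sets and without sets that can match several transcripts. With an offset of 50 the share of all 8553 expressed genes past 2-fold higher was 3.34%. With no filter all 17118 genes entered, dim ones too, and the share among them was 3.10%, which is not a share of expressed genes. The median of the 8 was 0.82 above the 75th percentile of brightness, where 4 of them remained, and otherwise lay between 0.17 and 0.61. The count of 1 among related enzymes became 0 with quantile normalization, intensity-dependent centring, an offset of 50 or no filter, and 2 with no floor or the mean of sets. The count of 6 cuticle collagens was 2 with an offset of 50 or above the 75th percentile and 3 without sets that can match several transcripts, and their median was 0.54 above the 75th percentile and with no filter. The median of the other hydroxylase and disulfide isomerase genes was −0.17 as reported and stayed below 0 in most settings. It was 0.34 without sets that can match several transcripts, 0.035 above the 75th percentile and 0.007 with the mean of sets. For the convertase, proteinase and inhibitor genes the median was 0.35 as reported, −0.22 above the 75th percentile and 0.87 with the mean of sets. Fewer genes enter under the stricter filters, and the offset shrinks the ratios of dim genes. With no filter, the ratios were centred on genes under both floors, whose log2 ratio was 0.22 as reported. That centring lowered each of the 8 log2 ratios by 0.22, and took pdi-2 to 0.83. Where values moved otherwise, the cause was not tested. Of 475 values under the alternatives, 429 moved by less than the spread between probe sets (for counts, by at most 1.5 times) and 46 by more. The cuticle collagen values enter this total under 2 names, and counts at least 2-fold lower stayed at 0 throughout. The 429 therefore overstate how stable the results were. No paired analysis was possible because each group holds 1 array. Genes near the floors, such as bli-3 and mlt-7, are limited by their low signal.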

Other observations

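Genes next to dpy-18 on chromosome III, by their order in the WBcel235 gene table, did not share its ratio: on one side tba-7, an alpha-tubulin gene, had a log2 ratio of 0.36 and pugs-8 one of −0.82, and on the other subs-4 lay under both floors and nlp-21 had −0.23. Beside pdi-2 on chromosome X, tmyb-1 had a log2 ratio of 0.88 and nhr-35 lay under both floors. At 2 genes away, spr-3 had −0.44 and nssp-77 had 2.24, with its GFP value (26.4) under the floor. Beside bli-4, rde-3 had −0.01. Expressed genes within 2 genes of the remaining members ran from −0.57 (madd-4, beside tsp-15) to 1.70 (cest-27, 2 genes from bli-3). The GFP value of cest-27 (28.1) lay under the floor.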
